A study of Homo sapiens with 14 samples.

Results

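The angiogenic factors described here are 10 genes that encode secreted regulators of blood vessel growth and 1 of their receptors: VEGFA, VEGFB, VEGFC, PGF, FLT1, ANGPT1, ANGPTL2, ANGPTL4, ADM and THBS1. They were taken by symbol from a table of read counts over 58219 genes, and all 10 were found. The set was chosen by gene symbol and role, with no threshold, but with the fold changes of these libraries against the controls in view, so an adjusted p-value of a member places that gene within the test over all genes and is not independent evidence. For ANGPTL4 and ADM, whose rise in siPAX8 and siSOX17 was part of those results, the changes against the controls in siPAX8, siSOX17 and siDual are given as a description with no p-value. Their differences among these groups, which contain the same values, are given in the same way.

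RNA came from OVCAR4, an established cell line of human high-grade serous ovarian cancer, 72 hours after reverse transfection with small interfering RNA (siRNA), a short RNA that guides the cell's own machinery to cut a transcript it pairs with. In all, 14 libraries form 7 groups of 2. Controls were treated with 1 of 2 non-targeting pools, siNT1 or siNT2, of which the second is a custom pool. The groups siPAX8, siSOX17, siMECOM and siWT1 received a pool against the transcription factor in the name, and siDual the PAX8 and SOX17 pools together. All groups were transfected at 120 nM with 300000 cells and no group was left untransfected, so a response to transfection itself, which the controls share, is not measured. All values come from a single cell line, and whether the 2 libraries of a group are separate transfections is not given in the labels. The p-values then measure only the spread between these libraries, which may be technical.

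Blood vessels grow toward tissue that secretes vascular endothelial growth factors. VEGFA acts mainly through the receptor KDR, VEGFB and PGF bind FLT1, and VEGFC acts through FLT4 on lymphatic vessels, while NRP1 and NRP2 serve as co-receptors. Angiopoietin-1 stabilises vessels through the receptor TEK, adrenomedullin (ADM) is a vasodilator peptide that acts through CALCRL with a RAMP protein, ANGPTL4 inhibits lipoprotein lipase, and thrombospondin-1 (THBS1) inhibits angiogenesis through CD36 and CD47. In ovarian cancer, VEGFA secreted by tumour cells is known for its part in ascites and is the target of the antibody bevacizumab.

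Total counts ranged from 40832825 to 49803860 per library, and 27628 to 29311 genes had at least 1 count. PAX8 stood at 204.8 ± 14.7 CPM (SD, n = 4; counts relative to the TMM-scaled library total) in the controls and at 35.5 in siPAX8 and 51.7 in siDual, and SOX17 at 110.6 in the controls and 14.4 in siSOX17 and 16.8 in siDual. MECOM was at 129.9 CPM in the controls and 12.6 in siMECOM, and WT1 at 0.394 in the controls, with 1 count over both siWT1 libraries. These genes also differed in groups that received other pools: MECOM was at 44.6 CPM in siSOX17 and 49.3 in siDual, PAX8 at 114.9 in siWT1 and 269.8 in siSOX17, and SOX17 at 229.2 in siMECOM. WT1 was scarce in the controls, and whether changes in siWT1 follow from its loss was not tested. The siWT1 group is counted among the knockdowns by its pool alone. Mitochondrially encoded genes took 5.34 to 6.13% of counts in the controls and 7.91 to 10.98% in the knockdown libraries, a shift that moved with every knockdown. The first siPAX8 library stood apart by low levels of genes of fat and stroma: FABP4, a fatty acid carrier, was at 2.02 CPM there and 0 in the second siPAX8 library, the proteoglycan DCN at 1.02 and 0, and CD36 at 2.02 and 0.0891.

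Sequences upstream of the 3 members with the largest increases, ANGPTL4, ADM and THBS1, are shown so that the letters before each start site can be seen beside the responses. They are from RefSeq (GRCh38.p14), run 5′ to 3′ on the plus strand, and end 11 bases before the transcription start. Capitals mark TATAAA, the core of a TATA box, and ACGTG or GCGTG on either strand, which form the core of a hypoxia response element. The stretches are chr19:8363905-8364144 for ANGPTL4, chr11:10305033-10305062 for ADM and chr15:39580829-39581068 for THBS1. The ADM stretch is shorter, since a longer annotated transcript overlaps the bases before it. It leaves out a GCGTG that starts 101 bases before the start. The ANGPTL4 stretch, printed in full, also lies within the bounds of the deposited gene, which begins at 8363289.
ANGPTL4: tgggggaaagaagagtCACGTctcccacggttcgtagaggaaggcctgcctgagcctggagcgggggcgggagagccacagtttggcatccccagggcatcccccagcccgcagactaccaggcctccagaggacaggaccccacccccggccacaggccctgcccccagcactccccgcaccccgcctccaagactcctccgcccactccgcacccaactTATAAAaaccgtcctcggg
ADM: ccacccgtgcgctTATAAAgcacaggaacc
THBS1: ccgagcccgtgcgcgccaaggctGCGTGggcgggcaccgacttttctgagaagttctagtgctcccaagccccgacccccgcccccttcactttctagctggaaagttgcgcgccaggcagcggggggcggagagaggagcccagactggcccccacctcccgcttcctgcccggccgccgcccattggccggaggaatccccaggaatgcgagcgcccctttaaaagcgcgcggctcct

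RefSeq promoter entries on chromosome 8, where ANGPT1 lies, were left out, also from the 35116 windows. VEGFA had no entry among those used, and entries were used for 8 of the 10 members. In the 250 bases before the start, TATAAA was found in 3 of these 8, at 27 bases before the start of ADM, 29 before that of ANGPTL4 and 31 before that of FLT1, against 10.7% of all 35116 windows of this length. ACGTG was found in 1 member, ANGPTL4 (18.5% of all windows), and GCGTG in 6 (32.2%). PGF, counted among the 6, had a window with a GCGTG and another with none. Members are counted by gene and the background by window, so the shares are not strictly alike. Neither TGANTCA, an AP-1 motif that 6.57% of all windows hold, nor ACAAT, a SOX core motif in 24.6%, was in the window of any member. GGGCGG, an SP1 box, was in all 8 members and in 42.6% of all windows. Both strands were searched, and the motif letters were chosen after the windows had been read. A match is a string of letters, not a shown binding site.

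Per base of the deposited gene length, VEGFB and THBS1 were the most abundant members in the control libraries. That length was 14431 bases for VEGFA and 1545 for VEGFB. In CPM, not scaled by length, VEGFA (95.9) stood above VEGFB (70.3) in the controls. In CPM per kilobase of the deposited gene length (RPKM), VEGFB stood at 45.5 ± 2.13 (SD, n = 4), THBS1 at 24.6 ± 2.51, VEGFA at 6.65 ± 0.619 and ADM at 4.06 ± 0.285, and the ranges of these 4 genes did not overlap. VEGFC followed at 0.383 ± 0.133, ANGPTL4 at 0.353 ± 0.0947, PGF at 0.213 ± 0.0540 and ANGPTL2 at 0.126 ± 0.0461. Each of these overlapped the next in the order, so their ranks are not separated by the spread. ANGPT1 (0.00950 RPKM) and FLT1 (0.00161 RPKM) were at the limit of detection.

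**Figure D1:**
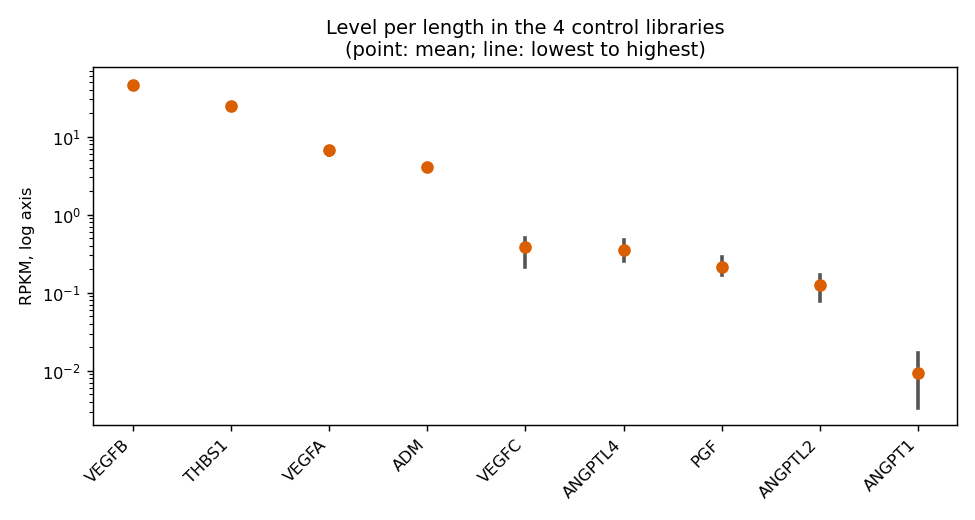
Level of the members per length in the 4 control libraries. The log y axis gives RPKM, points are means and lines run from the lowest to the highest library. FLT1, with a library at 0, is left off the log axis. VEGFB (45.5) and THBS1 (24.6) lead, and VEGFC to ANGPTL2 form an overlapping run below 1.

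This order differed in the knockdowns. In siDual, THBS1 led at 82.9 RPKM, ahead of VEGFB at 40.2, and ADM (26.3) and ANGPTL4 (20.7) both stood above VEGFA (10.0). In siSOX17 ADM was at 26.8 RPKM and ANGPTL4 at 13.3, also above VEGFA at 8.23. In siMECOM and siWT1, by contrast, ANGPTL4 stayed at 0.466 and 0.212 RPKM, below VEGFA at 3.42 and 4.89. The places of VEGFA depend on its deposited length. In CPM, VEGFA stood at 144.7 in siDual, above ADM (71.4) and ANGPTL4 (51.4). In siSOX17 it stood at 118.7 CPM, above ADM (72.7) and ANGPTL4 (33.1).

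Of the 10 members, 8 had enough counts to be tested, and FLT1 and ANGPT1 did not. The test throughout is edgeR's quasi-likelihood test, adjusted by Benjamini-Hochberg over 21032 genes, and a gene is called at an adjusted p under 0.05. In siPAX8, siSOX17 and siDual alike, 4 of the 8 were called higher and 2 lower than the controls. Among the 4 are ANGPTL4 and ADM, whose rise was known when the set was chosen, so nothing is read from these counts. These shares stand beside a background of 52.2% of all genes called in siPAX8 (26.9% higher, 25.4% lower), 52.6% in siSOX17 (27.2% and 25.5%) and 56.2% in siDual (28.9% and 27.3%). In siMECOM 2 were higher and 2 lower (background 32.6%: 16.5% higher, 16.1% lower), and in siWT1 none was higher and 3 were lower (37.5%: 17.7% and 19.8%). The median log2 fold change of the 8 was 0.57, 0.17, 0.51, -0.01 and 0.02 in siPAX8, siSOX17, siDual, siMECOM and siWT1, where that of all tested genes lay between -0.01 and 0.01. Between siNT1 and siNT2, none of the 8 was called (background 0.300%), and DESeq2 called none either. At an unadjusted p under 0.05, ANGPTL2 and ANGPTL4 were higher in siNT1, by 0.93 and 0.56 on the log2 scale.

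**Figure D2:**
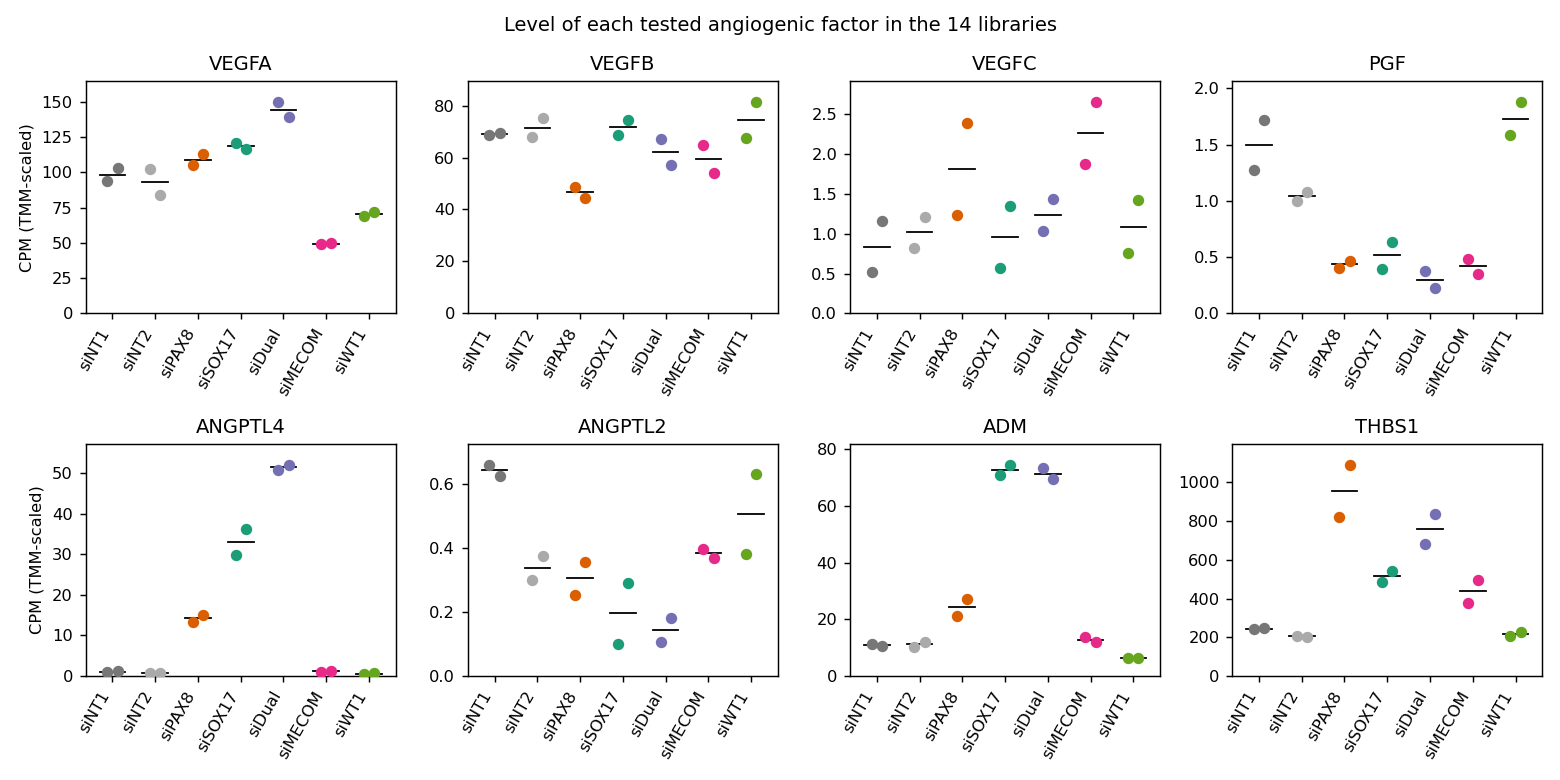
CPM of the 8 tested members in each of the 14 libraries, with a separate linear y axis from 0 for each gene; points are libraries and bars are group means. ANGPTL4, ADM and THBS1 are higher in siPAX8, siSOX17 and siDual, VEGFA is lowest in siMECOM, and the second library is the higher for VEGFC in every group.

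VEGFA (ENSG00000112715.21, chromosome 6 at 43770184 to 43786487, plus strand, hg38), the main growth factor for endothelial cells, moved in opposite directions between the knockdowns. It stood at 94.0 and 103.2 CPM in siNT1, 102.5 and 84.1 in siNT2, 105.2 and 112.8 in siPAX8, 120.8 and 116.7 in siSOX17, 149.9 and 139.4 in siDual, 49.2 and 49.6 in siMECOM, and 68.9 and 72.2 in siWT1. No knockdown library lay within the range of the 4 control libraries: those of siPAX8, siSOX17 and siDual were above it and those of siMECOM and siWT1 below. In bulk RNA, fewer cells of a kind and less RNA per cell cannot be told apart.

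VEGFA rose by a log2 fold change of 0.59 ± 0.08 (SE; adjusted p = 1.76e-06) in siDual and 0.31 ± 0.08 (adjusted p = 0.0023) in siSOX17. It fell by 0.96 ± 0.08 (adjusted p = 3.48e-08) in siMECOM and by 0.44 ± 0.08 (adjusted p = 0.000205) in siWT1. The siPAX8 value, 0.18 ± 0.08, missed the threshold (adjusted p = 0.0519) and passed it under other settings, for example at 0.0466 with DESeq2's size factors and at 0.0484 without mitochondrially encoded genes. AL136131.3, an antisense gene that overlaps VEGFA, was at 5.28 to 7.88 CPM in the controls and had log2 fold changes of 0.25 (not called), 0.60, 0.90, -0.96 and -0.69 in siPAX8, siSOX17, siDual, siMECOM and siWT1. The strand used in counting is not given in the sources used here, so reads of the 2 genes cannot be told apart.

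VEGFB (ENSG00000173511.9, chromosome 11 at 64234538 to 64238793, plus strand), a ligand of FLT1 known for its role in heart and fatty acid uptake, fell in siPAX8. It stood at 68.8 and 69.3 CPM in siNT1, 68.0 and 75.2 in siNT2, 48.7 and 44.4 in siPAX8, 68.8 and 74.5 in siSOX17, 67.3 and 57.0 in siDual, 64.8 and 54.2 in siMECOM, and 67.4 and 81.3 in siWT1. The siPAX8, siDual and siMECOM libraries all lay below the controls, those of siPAX8 the lowest.

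The VEGFB decrease in siPAX8 was 0.59 on the log2 scale (-0.59 ± 0.09, adjusted p = 3.13e-05). In siDual, which received the PAX8 pool beside the SOX17 pool, PAX8 was depleted less (51.7 CPM against 35.5 in siPAX8). VEGFB in siDual was at -0.18 ± 0.09 (adjusted p = 0.111), and siDual was higher than siPAX8 by 0.42 (adjusted p = 0.00959). That last call was lost without the second siPAX8 library (0.35, adjusted p = 0.102) or the first siDual library (0.29, adjusted p = 0.158). The siSOX17 value was 0.03, with a 95% interval of -0.17 to 0.22. In siMECOM the value of -0.24 ± 0.09 missed the threshold (adjusted p = 0.0548) and passed it with DESeq2 (adjusted p = 0.0347).

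VEGFC (ENSG00000150630.3, chromosome 4 at 176683538 to 176792727, minus strand), the lymphatic growth factor, had few counts, 22 to 136 per library. Its levels were 0.519 and 1.15 CPM in siNT1, 0.822 and 1.21 in siNT2, 1.23 and 2.38 in siPAX8, 0.572 and 1.35 in siSOX17, 1.04 and 1.44 in siDual, 1.87 and 2.65 in siMECOM, and 0.762 and 1.42 in siWT1. Library 2 exceeded library 1 in all 7 groups, by 1.39 to 2.36 times, and only siPAX8 and siMECOM lay wholly above the controls. VEGFC rose in siMECOM (log2 fold change 1.29 ± 0.33, adjusted p = 0.00492) and in siPAX8 (0.95 ± 0.34, adjusted p = 0.0244). The siMECOM call was lost without the second siMECOM library (1.01, adjusted p = 0.104). The siPAX8 value was 0.41 (adjusted p = 0.478) without the second siPAX8 library, 0.73 (adjusted p = 0.0864) without the first siNT1 library and 0.82 (adjusted p = 0.0667) without the first siNT2 library.

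PGF (ENSG00000119630.13, chromosome 14 at 74941834 to 74955784, minus strand), placental growth factor, fell in 4 of the 5 knockdowns. It stood at 1.27 and 1.72 CPM in siNT1, 1.00 and 1.08 in siNT2, 0.403 and 0.468 in siPAX8, 0.398 and 0.637 in siSOX17, 0.373 and 0.225 in siDual, 0.484 and 0.351 in siMECOM, and 1.58 and 1.88 in siWT1. Every siPAX8, siSOX17, siDual and siMECOM library was below every control library. The log2 fold changes were -1.52 ± 0.27 (adjusted p = 0.000101) in siPAX8, -1.28 ± 0.27 (adjusted p = 0.000591) in siSOX17, -2.08 ± 0.30 (adjusted p = 8.85e-06) in siDual and -1.59 ± 0.27 (adjusted p = 0.000154) in siMECOM. In siWT1 it was 0.47 ± 0.21 (adjusted p = 0.0856) and, against siNT2 alone, 0.73 (adjusted p = 0.0302). PGF was higher in siWT1 than in siMECOM by 2.05 ± 0.29 (adjusted p = 1.13e-05).

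FLT1 (ENSG00000102755.11, chromosome 13 at 28300344 to 28495145, minus strand), the receptor of VEGFA, VEGFB and PGF, had 38 counts over the 14 libraries. The counts were 0 and 2 in siNT1, 1 and 1 in siNT2, 1 and 2 in siPAX8, 4 and 1 in siSOX17, 0 and 0 in siDual, 2 and 10 in siMECOM, and 8 and 6 in siWT1. A count of 0 allows up to 3 counts, 0.0798 and 0.0675 CPM in the siDual libraries, by counting error alone. The siWT1 libraries held more FLT1 counts than any control library. With no filter on low counts, FLT1 was called higher in siWT1 (adjusted p = 0.0393) and not in siMECOM (adjusted p = 0.0781).

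ANGPT1 (ENSG00000154188.9, chromosome 8 at 107249482 to 107498055, minus strand), the agonist of TEK, had 56 counts, 1 to 8 per library in every group. Without a filter it was called in no comparison with the controls (adjusted p from 0.404 to 1), so no difference was detectable at this depth.

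ANGPTL4 (ENSG00000167772.11, chromosome 19 at 8363289 to 8374373, plus strand), a secreted lipase inhibitor known as a target of PPAR factors and of hypoxia, had the largest change among the members. It stood at 0.896 and 1.19 CPM in siNT1, 0.782 and 0.638 in siNT2, 13.4 and 15.1 in siPAX8, 29.9 and 36.2 in siSOX17, 50.8 and 52.0 in siDual, 1.12 and 1.19 in siMECOM, and 0.419 and 0.632 in siWT1. The siPAX8, siSOX17 and siDual libraries form separate steps with no overlap, all far above the controls. The log2 fold changes against the controls were 4.04 ± 0.13 in siPAX8, 5.25 ± 0.12 in siSOX17 and 5.89 ± 0.12 in siDual.

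ANGPTL4 was also higher in siDual than in siSOX17 (0.64 ± 0.11) and than in siPAX8 (1.85 ± 0.12), given as a description with no p-value. In siWT1 it fell by 0.72 ± 0.23 (adjusted p = 0.017), a call that was lost against siNT2 alone (-0.44, adjusted p = 0.233). It was also lost without the first siWT1 library (-0.46, adjusted p = 0.233), the second siNT1 library (-0.60, adjusted p = 0.0658) or the first siNT2 library (-0.64, adjusted p = 0.0588). The siMECOM value was 0.41 ± 0.19 (adjusted p = 0.109), and against siNT2 alone it was called (0.70, adjusted p = 0.0327). RAB11B-AS1, which overlaps ANGPTL4 on the other strand at 20.7 to 24.0 CPM in the controls, was called only in siSOX17, at 0.27 (adjusted p = 0.0292).

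ANGPTL2 (ENSG00000136859.9, chromosome 9 at 127087332 to 127122883, minus strand), a secreted protein of the same family known from inflamed tissue, was scarce, with 4 to 33 counts per library. It stood at 0.660 and 0.625 CPM in siNT1, 0.301 and 0.374 in siNT2, 0.255 and 0.357 in siPAX8, 0.0995 and 0.292 in siSOX17, 0.106 and 0.180 in siDual, 0.396 and 0.370 in siMECOM, and 0.381 and 0.632 in siWT1. The siSOX17 and siDual libraries lay below all controls, and siNT1 lay above siNT2. ANGPTL2 fell in siDual (-1.65 ± 0.45, adjusted p = 0.00385) and in siSOX17 (-1.26 ± 0.43, adjusted p = 0.0187). Against siNT2 alone both calls were lost (-1.19, adjusted p = 0.0635 and -0.79, adjusted p = 0.207), as they were without the first siDual library (-1.36, adjusted p = 0.0533) and the first siSOX17 library (-0.67, adjusted p = 0.291). DESeq2 did not call the siSOX17 value (adjusted p = 0.0551). The siPAX8 value, -0.60 ± 0.37 (adjusted p = 0.184), was called against siNT1 alone (-1.07, adjusted p = 0.0339).

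ADM (ENSG00000148926.9, chromosome 11 at 10304680 to 10307397, plus strand) encodes the precursor of adrenomedullin. It stood at 11.3 and 10.6 CPM in siNT1, 10.3 and 12.0 in siNT2, 21.1 and 27.3 in siPAX8, 71.0 and 74.5 in siSOX17, 73.4 and 69.4 in siDual, 13.8 and 11.9 in siMECOM, and 6.50 and 6.34 in siWT1. The siSOX17 and siDual libraries overlapped each other at about the same level, siPAX8 lay between them and the controls, and siWT1 lay below all controls. The log2 fold changes were 1.13 ± 0.10 in siPAX8, 2.72 ± 0.09 in siSOX17 and 2.69 ± 0.09 in siDual.

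The difference of ADM between siDual and siSOX17 was -0.03, with a 95% interval of -0.25 to 0.19, while siDual exceeded siPAX8 by 1.56 ± 0.11. Both values are a description with no p-value. ADM fell by 0.78 ± 0.11 (adjusted p = 1.7e-05) in siWT1. The siMECOM value was 0.22 ± 0.10 (adjusted p = 0.115).

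THBS1 (ENSG00000137801.10, chromosome 15 at 39581079 to 39599466, plus strand), the inhibitor of the set, rose in 4 of the 5 knockdowns. It stood at 242.4 and 247.5 CPM in siNT1, 207.5 and 203.4 in siNT2, 820.6 and 1089.6 in siPAX8, 486.4 and 544.1 in siSOX17, 681.7 and 837.0 in siDual, 376.7 and 498.1 in siMECOM, and 205.9 and 229.2 in siWT1. All libraries of siPAX8, siSOX17, siDual and siMECOM lay above the controls and those of siWT1 within their range. The log2 fold changes were 2.09 ± 0.11 (adjusted p = 9.34e-12) in siPAX8, 1.20 ± 0.11 (adjusted p = 3.04e-08) in siSOX17, 1.76 ± 0.11 (adjusted p = 9.33e-11) in siDual and 0.96 ± 0.11 (adjusted p = 1.83e-06) in siMECOM. The siWT1 value was -0.04, with a 95% interval of -0.29 to 0.20.

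Of the 3 members with the largest increases, THBS1 was the one that was higher in siPAX8 than in siSOX17, by 0.89 ± 0.13 (adjusted p = 2.63e-05). ANGPTL4 and ADM were lower in siPAX8 than in siSOX17, by 1.21 ± 0.12 and 1.59 ± 0.11 on the log2 scale, given as a description with no p-value. Both genes that overlap THBS1 on the other strand had nearly its values. AC037198.2 had log2 fold changes of 2.08, 1.23, 1.78, 0.94 and -0.01 in siPAX8, siSOX17, siDual, siMECOM and siWT1, and ENSG00000259279.1 had 2.07, 1.20, 1.73, 0.99 and -0.01. Their reads cannot be told apart from those of THBS1.

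**Figure D3:**
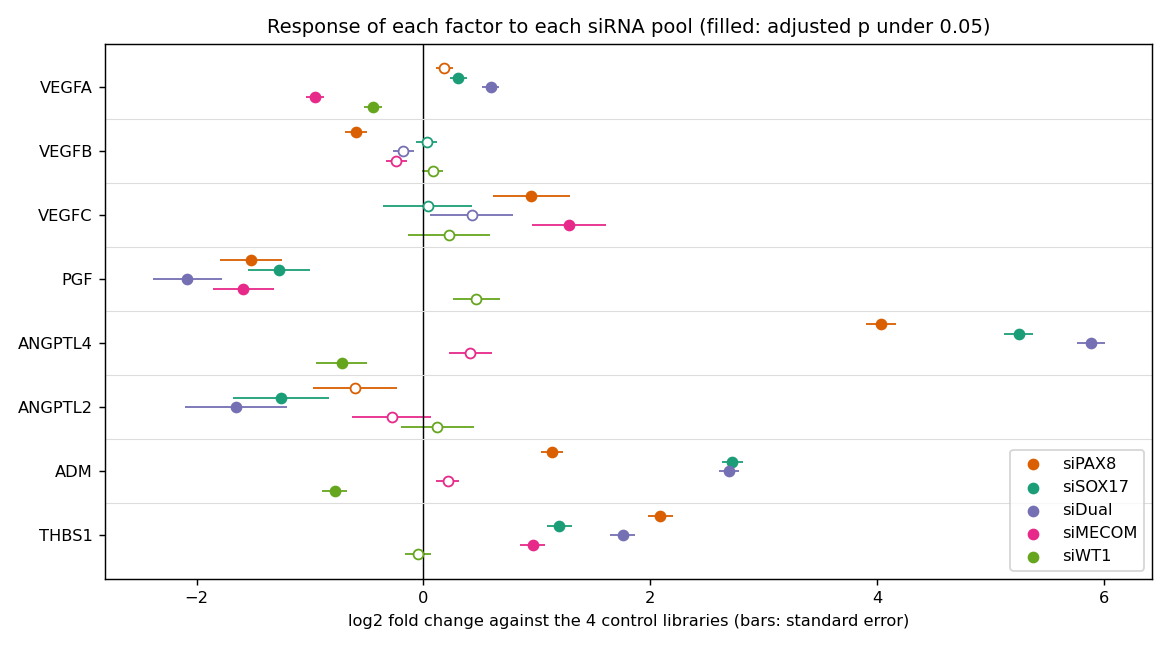
Log2 fold change of the 8 tested members against the 4 control libraries (x axis) for each of the 5 knockdowns. Bars are standard errors, and filled points have an adjusted p under 0.05. ANGPTL4 in siPAX8, siSOX17 and siDual (4.04 to 5.89) lies farthest to the right, and VEGFA has siSOX17 and siDual to the right of 0 and siMECOM and siWT1 to the left.

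Without the first siPAX8 library, the same 6 members were called in siPAX8, with ANGPTL4 at 4.12, THBS1 at 2.28, VEGFC at 1.35, ADM at 1.30, VEGFB at -0.67 and PGF at -1.42. FABP4 and DCN were at 0 in the library that remained.

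The siDual values were set beside the sum of the siPAX8 and siSOX17 values, the value reached if both log2 changes simply add. For 3 of the 8 tested members siDual was lower than the sum and for none higher, where 25.1% of all genes departed from the sum and 13.0% were below it. ANGPTL4 had a sum of 9.29 and a siDual value of 5.89, a difference of -3.40 ± 0.18, and ADM had 3.85 and 2.69 (-1.16 ± 0.14). Both differences contain the siPAX8 and siSOX17 values known when the set was chosen, so they are a description with no p-value, and nothing is read from the count of 3. THBS1 had a sum of 3.29 and a siDual value of 1.76 (-1.53 ± 0.17, adjusted p = 2.71e-06). The differences of the other members were 0.10 ± 0.12 for VEGFA, 0.39 ± 0.14 for VEGFB (adjusted p = 0.0537), 0.71 ± 0.49 for PGF, 0.21 ± 0.72 for ANGPTL2 and -0.57 ± 0.56 for VEGFC, and none was called. VEGFB passed under some settings, such as DESeq2 (adjusted p = 0.0467).

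On the linear scale ANGPTL4, ADM and THBS1 parted. ANGPTL4 gained 13.4 CPM over the controls in siPAX8 and 32.2 in siSOX17, which sum to 45.6, and 50.5 in siDual, 110.9% of the sum, so its departure changed sign between the scales. ADM gained 13.2 and 61.7 CPM, a sum of 74.9, and 60.4 in siDual, 80.7% of the sum. THBS1 gained 729.9 and 290.0 CPM, a sum of 1019.9, and 534.1 in siDual, 52.4% of the sum, so that siDual gained less than siPAX8 alone. The direct comparison of THBS1 in siDual and siPAX8 was -0.33 ± 0.13 (adjusted p = 0.0888), and it was called with no filter on low counts (-0.36, adjusted p = 0.00028) and without the first siPAX8 library (-0.52, adjusted p = 0.0144).

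**Figure D4:**
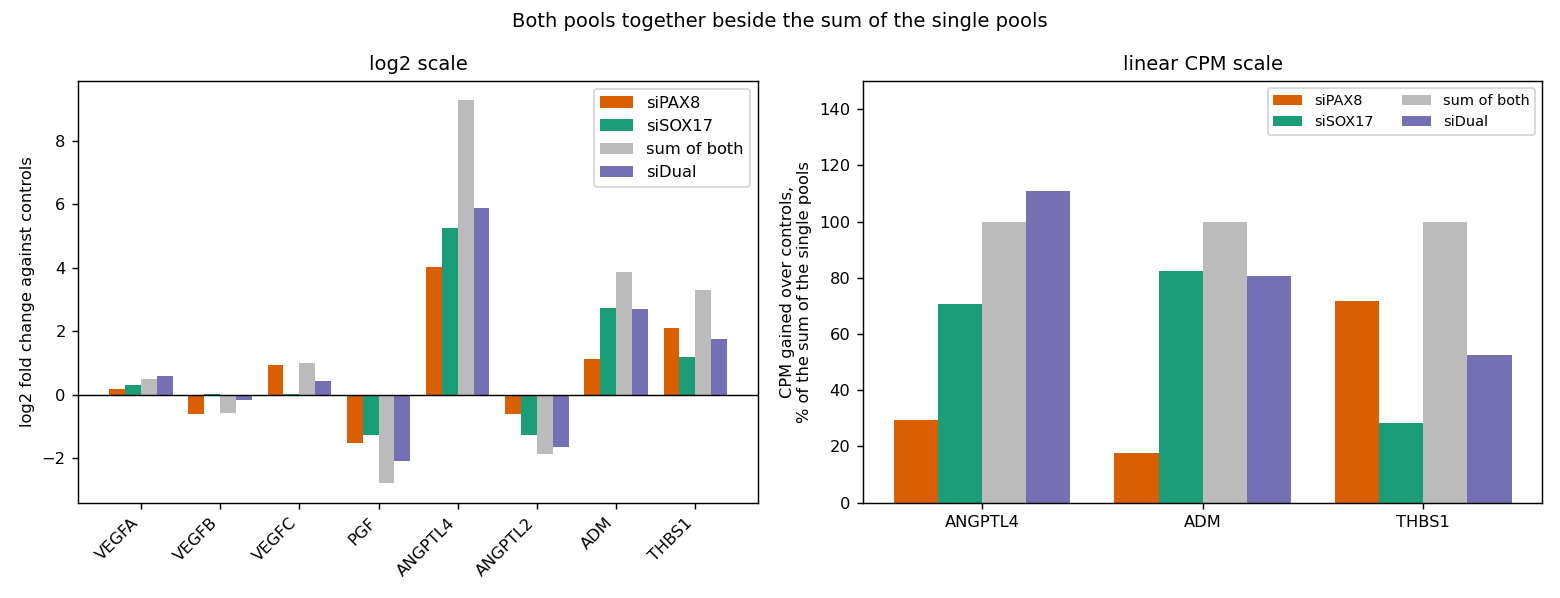
Left, log2 fold change against the controls of the 8 tested members in siPAX8 and siSOX17, their sum, and siDual. Right, CPM gained over the controls by ANGPTL4, ADM and THBS1, as a percentage of the summed gain, with both y axes linear and bars from 0. The siDual bar of ANGPTL4 is below the sum on the left (5.89 against 9.29) and above it on the right (110.9%).

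Knockdowns were also compared with each other. The members counted include ANGPTL4 and ADM, whose rise in siPAX8 and siSOX17 was known when the set was chosen, so the counts are a description. Of the 8 tested members, siDual had 4 higher than siPAX8 and none lower (background 19.6% of genes called), and 3 higher than siSOX17 and none lower (15.7%), the 3 being VEGFA, ANGPTL4 and THBS1. The VEGFA difference from siSOX17 (0.28 ± 0.09, adjusted p = 0.0359) lost its call without any 1 of the 4 libraries compared. That of THBS1 (0.56 ± 0.13, adjusted p = 0.00612) lost it without the first siSOX17 library (0.48, adjusted p = 0.0726) or the second siDual library (0.40, adjusted p = 0.127). Between siPAX8 and siSOX17, 1 member was higher in siPAX8 and 3 were lower (37.3%), VEGFB being lower by 0.62 ± 0.11 (adjusted p = 0.000138).

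Against siPAX8 and against siSOX17, siMECOM had 1 member higher and 4 lower in each case (47.1% and 48.4%). VEGFA, ANGPTL4 and ADM were lower in both, VEGFA by 1.14 and 1.26 on the log2 scale. Without the first siSOX17 library only 3 members were called between siMECOM and siSOX17. Against siPAX8 and against siSOX17, siWT1 had 2 members higher and 4 lower (57.4% and 57.8%), and PGF was higher in both, by 1.98 ± 0.29 (adjusted p = 8.57e-06) and 1.74 ± 0.29 (adjusted p = 3.94e-05). Between siWT1 and siMECOM, 3 were higher in siWT1 and 4 lower (45.2%), VEGFA being higher in siWT1 by 0.51 ± 0.09 (adjusted p = 0.000145) and THBS1 lower by 1.01 ± 0.13 (adjusted p = 6.26e-06).

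The receptors of the VEGF ligands were scarce in these cells, and 4 of 5 genes of this list passed the filter. KDR was at 0.200 to 0.731 CPM in the controls and rose in siPAX8 (1.91 ± 0.28, adjusted p = 1.3e-05) and in siWT1 (1.39). FLT4 was at 0.261 to 0.879 CPM in the controls and fell in siPAX8 (-2.37), siSOX17 (-1.76) and siDual (-1.54). The co-receptor NRP2 was at 2.34 to 3.21 CPM in the controls and 11.1 to 14.7 in siPAX8 (2.29), rose also in siDual (0.83), siMECOM (0.68) and siWT1 (0.54), and fell in siSOX17 (-0.58), while NRP1 rose in siSOX17 (1.09), siDual (0.60) and siPAX8 (0.36). The list had 3 genes higher and 1 lower in siPAX8, 1 and 2 in siSOX17, 2 and 1 in siDual, 1 and 0 in siMECOM, and 2 and 0 in siWT1. Of all genes, 26.9% were called higher and 25.4% lower in siPAX8, 27.2% and 25.5% in siSOX17, and 28.9% and 27.3% in siDual. In siMECOM these shares were 16.5% and 16.1%, and in siWT1 17.7% and 19.8%. They are the background of every list count here and below, and those counts are a description.

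Of the angiopoietin receptors, TEK did not pass the filter and TIE1 was called nowhere. Among 4 tested of 9 angiopoietins, TIE receptors and angiopoietin-like genes, ANGPTL8, a regulator of lipoprotein lipase, was the only one called, lower by 0.46 in siSOX17, 0.53 in siDual, 0.47 in siMECOM and 1.00 in siWT1. In the lipase list, 4 of 5 were tested, with 3 higher and 1 lower in siPAX8, 2 and 0 in siSOX17 and in siDual, 1 and 1 in siMECOM, and 0 and 1 in siWT1. LIPG, an endothelial lipase, rose in siPAX8 (1.35) and siDual (0.79) and fell in siMECOM (-0.39) and siWT1 (-0.64). LPL, the lipase that ANGPTL4 inhibits, was called higher in siPAX8 on the first library alone, at 0.828 CPM against 0 in the second.

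For adrenomedullin, PAM, the enzyme that amidates the peptide, rose in siPAX8 (0.47), siSOX17 (0.55) and siDual (0.41). RAMP1 rose in the same groups (1.098, 1.63 and 1.68) from 0.132 to 0.354 CPM in the controls, and RAMP2, the partner in the adrenomedullin receptor, fell in siSOX17 (-1.26) and siDual (-1.02). CALCRL, its receptor, was at 0.0220 to 0.120 CPM in the controls and was called only in siMECOM (2.36). ADM2, a related peptide, fell in all 5 knockdowns, from -0.46 in siWT1 to -1.77 in siMECOM, so that ADM and ADM2 moved in opposite directions in siPAX8, siSOX17 and siDual. Of 7 tested genes of 10, siPAX8 had 2 higher and 2 lower, siSOX17 and siDual 2 and 3, siMECOM 2 and 1, and siWT1 0 and 1.

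For thrombospondin-1, the receptor CD47 rose in siPAX8 (0.36) and siWT1 (0.45) and fell in siSOX17 (-0.62), siDual (-0.42) and siMECOM (-0.24). CD36 was called higher in siPAX8 (2.19), again on the first library. THBS2 rose in siPAX8 (1.15), siDual (1.24) and siMECOM (0.77), and the integrin ITGB3 fell in siPAX8 (-2.46), siWT1 (-2.26), siDual (-1.32) and siMECOM (-0.998) and rose in siSOX17 (0.51). Of 6 tested genes of 8, siPAX8 had 3 higher and 1 lower, siSOX17 2 and 1, siDual and siMECOM 1 and 2, and siWT1 2 and 2. Other endogenous inhibitors, 9 tested of 10, had 4 and 2 called in siPAX8, 3 and 3 in siSOX17, 3 and 2 in siDual, 1 and 2 in siMECOM, and 2 and 4 in siWT1. TIMP3 rose in siPAX8 (1.79), siDual (1.62) and siSOX17 (0.98) and fell in siMECOM (-0.42) and siWT1 (-0.30). VASH2 fell in siSOX17 (-3.04), siDual (-1.86) and siPAX8 (-0.95) and rose in siWT1 (0.71).

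Of other angiogenic growth factors, 14 tested of 17, siPAX8 and siSOX17 each had 9 higher and 1 lower, siDual 10 and 1, siMECOM 7 and 4, and siWT1 3 and 4. Over all genes, 26.9%, 27.2%, 28.9%, 16.5% and 17.7% were higher in siPAX8, siSOX17, siDual, siMECOM and siWT1. PDGFB, a recruiter of pericytes, rose in siSOX17 (1.98), siDual (1.42), siPAX8 (1.30) and siMECOM (0.82) and fell in siWT1 (-0.90). PDGFD rose in all 5 knockdowns, from 0.35 in siWT1 to 1.76 in siPAX8. The growth factor MDK was the one gene of the list that fell in siPAX8 (-0.86), siSOX17 (-1.80) and siDual (-1.68).

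Genes known to be induced by hypoxia had, of 16 tested, 10 higher and 0 lower in siPAX8 (median 0.31), 14 and 0 in siSOX17 (0.96), 16 and 0 in siDual (1.12), 0 and 11 in siMECOM (-0.31) and 3 and 7 in siWT1 (-0.30). Of all genes, 26.9%, 27.2%, 28.9%, 16.5% and 17.7% were higher in these groups, and 25.4%, 25.5%, 27.3%, 16.1% and 19.8% lower. The carbonic anhydrase CA9 rose by 1.39, 2.54 and 3.21 in siPAX8, siSOX17 and siDual and fell in siMECOM (-0.995). The matrix enzyme LOX fell in siMECOM (-1.57) and siWT1 (-0.68) and rose in siPAX8 (0.47) and siDual (0.61).

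The hypoxia factors themselves did not move as a pair. HIF1A rose in siSOX17 (0.61) and siDual (0.31) and fell in siPAX8 (-0.51) and siWT1 (-0.45). EPAS1, which encodes HIF-2 alpha, rose in siPAX8 (0.56), siSOX17 (0.96) and siDual (0.69) and fell in siMECOM (-0.87) and siWT1 (-1.005). Of the 9 genes of the HIF pathway, 2 were higher and 1 lower in siPAX8, 5 and 2 in siSOX17, 4 and 2 in siDual, 2 and 2 in siMECOM, and 1 and 3 in siWT1. EGLN3, a HIF prolyl hydroxylase, rose in siPAX8 (0.55), siSOX17 (0.94), siDual (1.04) and siMECOM (0.79) and fell in siWT1 (-0.20).

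The PPAR list, whose targets include ANGPTL4, moved both ways, with 6 higher and 3 lower of 12 tested in siPAX8, 5 and 3 in siSOX17, 4 and 4 in siDual, 0 and 4 in siMECOM, and 1 and 4 in siWT1. PPARD rose in siPAX8 (0.43), siSOX17 (0.60) and siDual (0.85) and fell in siMECOM (-0.24). The target CPT1A, of fatty acid oxidation, fell in siPAX8 (-0.97), siSOX17 (-0.80), siDual (-1.26) and siMECOM (-1.14), and PDK4 fell in siSOX17 (-1.03) and siDual (-1.54) and rose in siWT1 (1.17). The increases of FABP4 (3.64) and CD36 in siPAX8, both on this list, again rested on the first library.

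**Figure D5:**
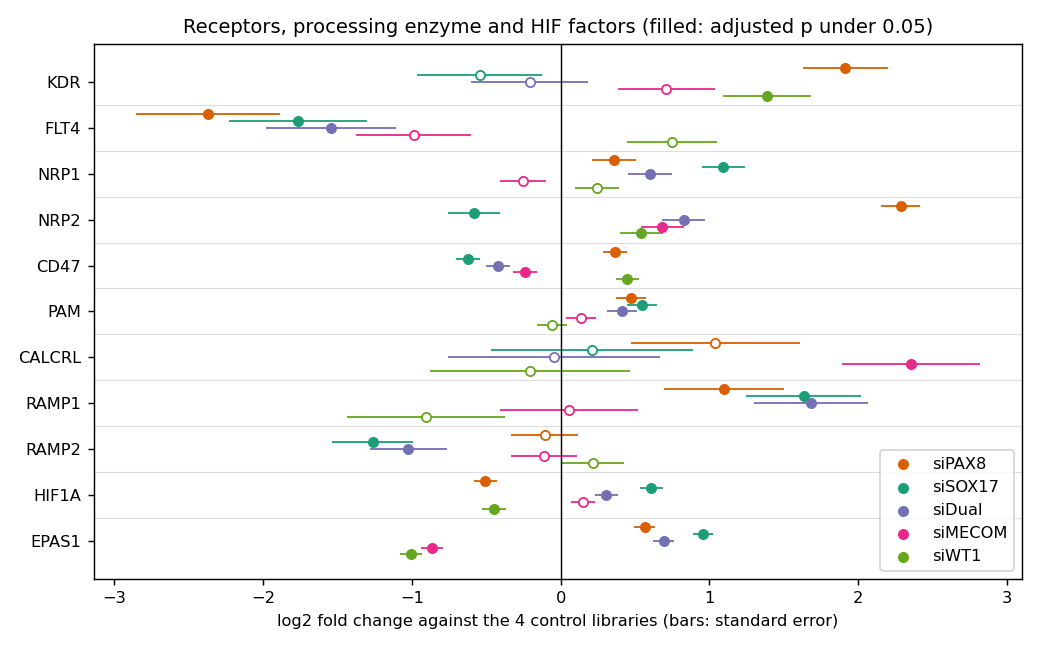
Log2 fold change against the 4 control libraries (x axis) of receptors, co-receptors, the processing enzyme PAM and the HIF factors in the 5 knockdowns. Bars are standard errors and filled points have an adjusted p under 0.05. NRP2 in siPAX8 (2.29) and CALCRL in siMECOM (2.36) lie farthest right, FLT4 in siPAX8 (-2.37) farthest left.

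The markers of the labelled cell type were present, and their sum moved in places with the members, as did the sums of other cell types. The 12 serous ovarian epithelial markers summed to 4502 to 5309 CPM in the controls. Their sum was 8745 to 11101 in siPAX8, 13403 to 13647 in siSOX17 and 18505 to 21140 in siDual. It was 4894 to 5649 in siMECOM and 4095 to 4346 in siWT1. WT1 was the only one of these markers under 1 CPM in every library. Of these markers, 4 were higher and 5 lower in siPAX8, 6 and 6 in siSOX17, 5 and 6 in siDual, 2 and 5 in siMECOM, and 1 and 7 in siWT1. The list holds PAX8, SOX17, MECOM and WT1, the targets of the pools, so a lower count can be the knockdown itself. KRT8, KRT18 and KRT7 made up most of the sum. In siDual KRT8 was at 8757.8 CPM against 1407.6 in the controls, EPCAM at 246.9 against 226.0 and CLDN3 at 17.2 against 33.1. The 12 endothelial markers summed to 25.3 to 28.5 CPM in the controls, 32.6 to 35.7 in siPAX8, 17.3 to 18.6 in siSOX17, 18.3 to 18.7 in siDual, 26.5 to 27.4 in siMECOM and 28.7 to 29.8 in siWT1, with 5 of 12 under 1 CPM in every library.

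The 10 fibroblast and pericyte markers summed to 44.2 to 54.6 CPM in the controls, 83.1 to 92.7 in siPAX8, 92.3 to 97.9 in siSOX17, 104.6 to 121.9 in siDual, 32.8 to 34.3 in siMECOM and 32.9 to 34.6 in siWT1, with 4 of 10 under 1 CPM in every library. The 7 leukocyte markers summed to 22.4 to 27.1 CPM in the controls, 53.8 to 60.6 in siPAX8, 55.1 to 58.6 in siSOX17, 70.0 to 83.4 in siDual, 18.7 to 18.95 in siMECOM and 10.6 to 12.3 in siWT1. In that list 5 of 7 were under 1 CPM in every library, and PTPRC, which defines leukocytes, was at 0.133 CPM or less. No gene of these lists was at 0 in all 14 libraries. The endothelial list, 9 tested, had 3 called higher and 3 lower in siPAX8, 0 and 5 in siSOX17 and in siDual, 1 and 2 in siMECOM, and 5 and 2 in siWT1. The fibroblast and pericyte list, 9 tested, had 6 and 0 in siPAX8 and in siDual, 4 and 1 in siSOX17, and 0 and 2 in siWT1. DCN, on this list, was at 1.02 CPM in the first siPAX8 library and 0 in the second. The leukocyte list, 4 tested, had 2 and 1 in siPAX8, siSOX17 and siDual, and 0 and 2 in siWT1. In siPAX8, siSOX17 and siDual, the fibroblast, leukocyte and epithelial sums and the share of mitochondrial counts were above the controls, as ANGPTL4, ADM and THBS1 were. The part of these sums and this share in the increases of the members was not tested. In siMECOM, where THBS1 also rose, the fibroblast and leukocyte sums were below the controls, and the mitochondrial share (8.58 to 9.70%) was above them. By gene, the fibroblast and pericyte list there had 3 called higher and 2 lower (median log2 fold change 0.30), and the leukocyte list 1 and 1. In siWT1, where ANGPTL4 and ADM fell, the mitochondrial share was above the controls, and the fibroblast, leukocyte and epithelial sums were below them. Their part in these decreases was not tested either.

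The genes whose levels followed each member most closely over the 14 libraries were found among about 11919 protein-coding genes by Pearson's r of log2 CPM. The libraries share their groups, so r describes the pattern over 7 groups more than over 14 independent samples. ANGPTL4 was most like PMEPA1 (r = 0.991), RSU1 (0.989) and CSRP1 (0.988), and ADM most like SERINC2 (0.988), CAV1 (0.985) and CAVIN1 (0.984), the last 2 of which encode caveolar proteins. THBS1 was most like UBR3 (0.984), PPP1R3G (0.9754) and FAM189A2 (0.969), and VEGFA most like ZNF438 (0.963), LOX (0.959) and B3GNT2 (0.958).

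PGF was most like PCOLCE (0.964), PRICKLE3 (0.956) and NTHL1 (0.945), and VEGFB like NME4 (0.938), EMD (0.933) and STAB1 (0.932). The scarce members had weaker likenesses: ANGPTL2 with LUC7L (0.899) and SH2D2A (0.894), and VEGFC with WASF1 (0.869), GZF1 (0.861) and ARHGAP26 (0.851). By Spearman's rho WASF1 kept the first place for VEGFC and ZNF438 took place 3 for VEGFA, and every other named gene moved out of the first 3 places, LOX to 423rd.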

How the data were processed

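Each deposited value was a raw read count of a gene on hg38. The submitters' processing notes name STAR 2.5.1b and featureCounts 1.6.3. Which annotation release and strand setting were used is not given in the sources used here. Of 58219 genes, 57881 matched GENCODE 29 by identifier, and symbols were taken from there. A deposited length column served for RPKM.

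In edgeR 4.0.16, filterByExpr at a minimum count of 10 and a minimum total of 15 removed low genes, and TMM scaled the libraries. A quasi-likelihood model with 7 groups and 7 residual degrees of freedom was fitted in R 4.3.3, with the equal-weight mean of siNT1 and siNT2 as control. Adjustment was by Benjamini-Hochberg over 21032 genes. Standard errors were obtained by dividing a log2 fold change by the root of its F statistic. The script was tested on simulated data.

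The members, the gene lists and the tests were chosen with earlier results of these data known. All members are named. From each list come receptors, substrates and enzymes of members, and at most 2 called genes with the largest increases and 2 with the largest decreases, and fewer are named in places. A few that qualify are not reported here, although list counts include them. EGLN3, TIE1, LIPG and ANGPTL8 were named with their values known. Of 149 listed genes, 2 matched by an older symbol. Alternatives were DESeq2 1.42.0, its size factors, filters, each control pool alone, a replicate block, the compared groups alone, no mitochondrial genes, and leaving out each library.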

Additional observations from a re-analysis of the deposited data

Results flagged for a closer look

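On the log2 scale, siDual lay farthest below the sum of siPAX8 and siSOX17 for 3 members: ANGPTL4 at -3.399, THBS1 at -1.530 and ADM at -1.160. The THBS1 value passed the threshold of edgeR's quasi-likelihood test over all genes (adjusted p = 2.71e-06). The values of ANGPTL4 and ADM contain the rises in siPAX8 and siSOX17 that were known when the set was chosen, so they are a description and not a test. PAX8 and SOX17 were depleted less in siDual than in siPAX8 and siSOX17, and the part of this in the departures was not tested. All 3 kept their sign with DESeq2 and without any 1 of the 14 libraries. On the linear CPM scale, ANGPTL4 in siDual was above the sum by 4.96 CPM, while THBS1 and ADM were below it. No member had a library far from the others among the 4 controls.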

How the results depend on the processing

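Over 2600 member values under the alternatives, 2511 kept their side of the threshold, 39 lost a call and 50 gained one. No value called in either setting changed direction. Values called in neither setting could change direction and are counted among the 2511. Of the 39, 32 came from leaving out 1 library. On the linear scale, the ANGPTL4 departure of siDual from the sum was 4.96 CPM, of the opposite sign to the log2 scale. The count of all genes called between siNT1 and siNT2, 63, was 153 with DESeq2, 232 with no filter, and 11 to 77 without 1 library. Without 1 library, the genes called numbered 4096 to 7044 between siMECOM and the controls (6857 with all), 2636 to 4220 between siDual and siPAX8 (4115) and 1822 to 3355 between siDual and siSOX17 (3297). Members called numbered 1 to 3 between siDual and siSOX17 and 3 to 5 between siMECOM and siSOX17. The cause of these shifts was not tested. Low depth limits FLT1, ANGPT1, ANGPTL2, PGF and VEGFC.

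The labels tie the replicate numbers to no shared batch, and deviations of same-numbered libraries correlated at -0.02 to 0.16 over 21 pairs of groups, with 7 over 0.1, so the numbers were not taken to pair the libraries. With the replicate block, 150 genes were called between siNT1 and siNT2, and the other counts of calls stayed within 1.5 times. The block ended no call of a member and added 7 (adjusted p): VEGFA in siPAX8 (0.0433), VEGFB in siMECOM (0.0424), VEGFB beside the sum (0.0411), VEGFC in siPAX8 against siSOX17 (0.00362) and in siWT1 against siPAX8 (0.00736), and THBS1 in siDual against siPAX8 (0.0171) and in siMECOM against siSOX17 (0.0402).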
